A study of Rattus norvegicus with 54 samples.

Results

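A set of 9 genes that dividing cells switch on was followed through 54 RNA sequencing libraries of cultured rat cortical cells: Ccnd1, Pcna, Ccna2, Cdk1, Top2a, Mki67, Ccnb1, Plk1 and Aurkb. They were chosen by name, each kept only if its Ensembl identifier stood in the count table on the stated chromosome, and all 9 were found among 30560 genes. All 9 also passed the filter on low counts, which kept 17172 genes in all. The choice was made with results of these libraries already known, but the rule states no value, threshold or comparison, so no group of members just inside or outside a threshold exists.

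The cultures were made from rat cortex at embryonic day 18 and are labelled as neurons. There were 3 constructs. Untransfected cultures received no virus. GFP cultures received AAV-SYN-GFP, an adeno-associated virus used as the control virus. rMBD3 cultures received AAV-SYN-rMBD3-GFP, made to overexpress Mbd3, a methyl-CpG binding domain protein of the NuRD chromatin remodelling complex. SYN stands for the synapsin promoter, which is active in neurons, so neither transgene was designed to be expressed in the other cells of a culture. Each construct was combined with standard medium containing magnesium or with magnesium-free medium, in which neurons fire in epileptiform bursts, and cells were collected 2, 6 or 24 h after the start of that condition. This gave 18 groups of 3 libraries. The labels number the 3 cultures of each group as biological replicates 1 to 3, and the p-values below measure the spread between those cultures.

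The cell cycle runs from G1 through DNA replication in S phase and the gap phase G2 to mitosis, M. Cyclins switch on cyclin-dependent kinases in turn, and many of the genes needed from S phase to mitosis are transcribed only in cycling cells, so their mRNAs serve as markers of proliferation. Neurons have left the cycle for good. In cortical cultures the cells known to divide are glial and other precursor cells. Cyclin D1 and Plk1 are also known outside dividing cells, cyclin D1 as a gene induced by growth signals and Plk1 as one of the polo-like kinase family, of which other members act at synapses.

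Promoters of S to M phase genes are known for a pair of elements: the cell cycle genes homology region (CHR), which binds the MuvB complexes that repress these genes in resting cells, and the CCAAT box, which binds NF-Y. RefSeq promoter sequences (build GRCr8) could be matched to 6 of the 9 genes. The 250 bases before the transcription start are printed 5′ to 3′ for 3 of the genes called lower in rMBD3 than in untransfected cultures (Top2a, Mki67, Cdk1). They are also printed for Pcna, which was not called. Ccnb1 and Plk1 were called lower too, and their matched windows, not printed here, held no CHR letters. Capitals mark CHR letters (TTTGAA or TTCGAA) and CCAAT boxes (CCAAT), each on either strand.
Top2a promoter (chr10:84473094-84473343, minus strand): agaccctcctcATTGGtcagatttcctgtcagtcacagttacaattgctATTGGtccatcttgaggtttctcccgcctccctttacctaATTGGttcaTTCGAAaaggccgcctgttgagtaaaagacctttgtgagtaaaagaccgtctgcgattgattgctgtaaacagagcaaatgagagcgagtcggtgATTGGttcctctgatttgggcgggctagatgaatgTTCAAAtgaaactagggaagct
Mki67 promoter (chr1:199952594-199952843, minus strand): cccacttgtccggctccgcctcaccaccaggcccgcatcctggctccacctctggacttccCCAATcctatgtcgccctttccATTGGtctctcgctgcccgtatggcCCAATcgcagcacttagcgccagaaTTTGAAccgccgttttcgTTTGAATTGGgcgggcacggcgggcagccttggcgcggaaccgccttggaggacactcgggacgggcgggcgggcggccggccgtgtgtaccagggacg
Cdk1 promoter (chr20:19265043-19265292, plus strand): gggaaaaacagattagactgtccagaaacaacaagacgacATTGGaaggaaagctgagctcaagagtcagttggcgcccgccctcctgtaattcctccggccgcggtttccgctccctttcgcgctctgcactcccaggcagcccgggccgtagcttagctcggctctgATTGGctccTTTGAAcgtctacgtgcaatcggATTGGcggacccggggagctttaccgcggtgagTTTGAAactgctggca
Pcna promoter (chr3:139955821-139956070, minus strand): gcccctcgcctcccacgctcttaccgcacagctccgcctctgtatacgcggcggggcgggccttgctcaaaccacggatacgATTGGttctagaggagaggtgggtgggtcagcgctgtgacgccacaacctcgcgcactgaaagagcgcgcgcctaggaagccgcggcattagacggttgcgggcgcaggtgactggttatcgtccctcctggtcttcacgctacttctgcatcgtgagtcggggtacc
The Top2a, Mki67 and Cdk1 windows each held 2 CHR matches, and the nearest to the start lay 22, 99 and 16 bases before it. Top2a and Mki67 each held 4 CCAAT boxes and Cdk1 held 3, and in Mki67 a CHR match shares letters with a CCAAT box. Ccnb1 had 2 CCAAT boxes, Plk1 had 1 and Pcna had 1, and none of these 3 windows held the CHR letters. Only the 2 spellings TTTGAA and TTCGAA were searched, and no bases after the start, so a CHR of other letters or position would be missed. Among 33469 RefSeq promoters of the same length, 17.4% held a CHR match, 34% a CCAAT box and 6.31% both. The E2F letters TTTNNCGC, searched on both strands, were present 2 times in the Cdk1 window and 1 time in that of Plk1, against 4.11% of all promoters. These matches describe letters in the windows and say nothing about binding.

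Library totals ran from 14448927 to 39691105 counts, with a median of 26121007. Levels are given in CPM, the count of a gene as a share of its library total, after scaling by TMM factors. A count of 3, the limit that a count of 0 allows, equals 0.076 to 0.206 CPM depending on the library and covers counting error only. The label of the rMBD3 cultures could not be checked independently, because identifiers were not paired with names. ENSRNOG00000028956, on chromosome 7, spanned 2291 to 18260 CPM in the 18 rMBD3 libraries and 113 to 271 CPM in all others. It was picked as the called gene with the largest rise in rMBD3 against GFP cultures, among genes with a log2 CPM of at least 1. Its difference from GFP cultures is therefore no check of the label. Among untransfected cultures, the summed CPM of Top2a, Mki67, Cdk1, Ccnb1, Ccna2 and Aurkb was far higher in replicate 1 than in replicates 2 and 3 with magnesium at 2 h (25.8 against 8.57 and 11.2) and 6 h (41.6 against 14.3 and 11.3) and without magnesium at 24 h (153.7 against 23.4 and 27.9). With magnesium at 24 h it was 110.3 against 20.1 and 68.4. The replicate 1 libraries without magnesium at 2 h (11.6 against 8.63 and 6.72) and 6 h (13.8 against 12.6 and 13.3) differed less. The untransfected replicate 1 library without magnesium at 24 h had the second lowest mean correlation with its group mates of all 54 libraries (0.919, against a range of 0.915 to 0.987). Several results that use the 6 untransfected libraries of replicate 1 are given with and without them, a choice made after their values were seen. In these Results, the time comparisons averaged over constructs and the correlations are given only with them. So are GFP against untransfected cultures at single times and its change with time. Markers of neurons, glia and other cell types were not analysed here, because the count table gives identifiers without names.

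Levels differed widely between the 9 genes when compared per kilobase of exon. Ccnd1 had the highest median over the 54 libraries, 56.7 CPM per kilobase, followed by Pcna with 38 CPM per kilobase. Plk1 had 2.7, Ccnb1 1.09, Cdk1 0.542, Mki67 0.377, Ccna2 0.279, Aurkb 0.206 and Top2a 0.0801 CPM per kilobase. Ccnd1, which encodes the G1 cyclin D1, stood above 93.4% of all tested genes on this scale, and Pcna, the sliding clamp of the replication fork, above 88.9%. The other 7 genes, which act from S phase to mitosis, stood between the percentiles 8.52 (Top2a) and 40.2 (Plk1). Aurkb had no count in 8 libraries, Top2a in 3, Ccna2 in 2 and Cdk1 in 1, while the other 5 genes had counts in every library. When the 18 groups were ordered by mean CPM, the ranges of all 17 pairs of neighbours overlapped for 8 genes. Ccnd1 had 1 pair of neighbours that did not overlap, at the step from the 6 h groups to the 24 h groups.

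**Figure D1:**
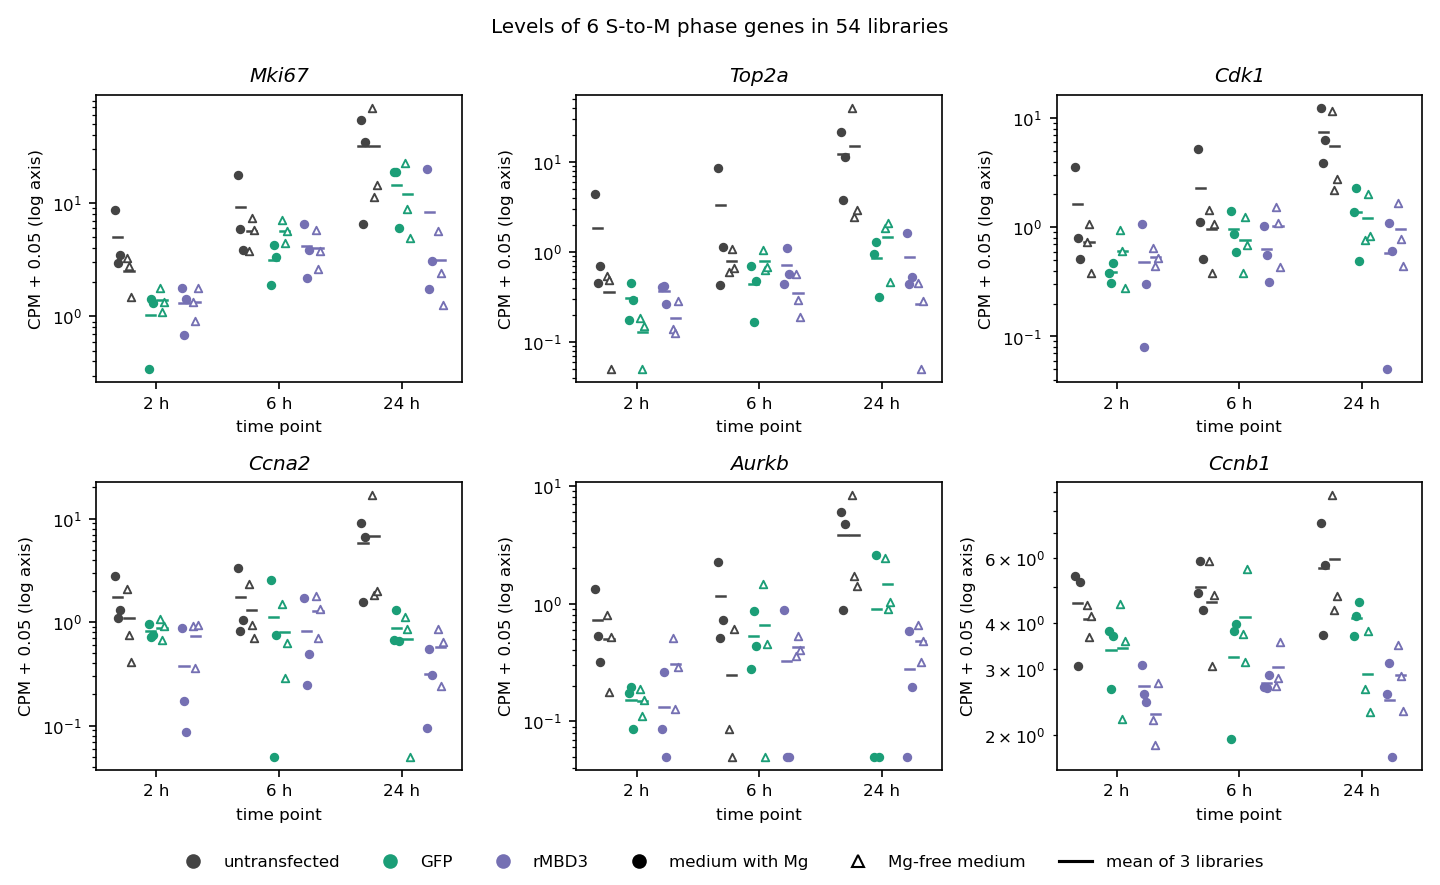
CPM (plus 0.05, log axis) of Mki67, Top2a, Cdk1, Ccna2, Aurkb and Ccnb1 in 54 libraries by time point and construct; filled circles are magnesium medium, open triangles magnesium-free medium, and bars the mean of 3 libraries. The highest point of every panel is a replicate 1 library of untransfected cultures at 24 h, with 39.6 CPM for Top2a.

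Averaged over the 6 libraries of a construct and time, Top2a, Ccna2, Cdk1, Mki67, Aurkb, Ccnb1 and Pcna were highest in untransfected cultures at 24 h. Ccnd1 (582.9 CPM there, 587.2 CPM in rMBD3 cultures at 24 h) and Plk1 (5.37 CPM there, 7.39 CPM in GFP cultures at 2 h) were not. Top2a is the topoisomerase that untangles chromosomes before they separate. In untransfected cultures at 24 h it stood at 21.3, 3.75 and 11.2 CPM in replicates 1 to 3 with magnesium and at 39.6, 2.41 and 2.85 CPM without it. Over the 6 GFP libraries at 24 h Top2a spanned 0.271 to 2.06 CPM with a median of 1.08 CPM, and over the 6 rMBD3 libraries it spanned 0 to 1.59 CPM with a median of 0.399 CPM. Every untransfected library at 24 h thus held more Top2a mRNA than every virus library of that time. In bulk RNA a smaller number of dividing cells and less of the mRNA per dividing cell cannot be told apart.

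Ccna2, cyclin A2 of S and G2 phase, showed the same order. Its 24 h values in untransfected cultures were 9.02, 1.5 and 6.54 CPM with magnesium and 16.7, 1.78 and 1.94 CPM without. In GFP cultures Ccna2 reached at most 1.25 CPM at 24 h, and in rMBD3 cultures at most 0.809 CPM. No virus library overlapped the untransfected ones. Cdk1, the kinase that drives entry into mitosis, stood at 12.4, 3.82 and 6.24 CPM with magnesium and 11.6, 2.16 and 2.74 CPM without in untransfected cultures at 24 h. The GFP range of Cdk1 at 24 h was 0.44 to 2.22 CPM, which touched the lowest untransfected library, and the rMBD3 range was 0 to 1.62 CPM, which did not.

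Mki67, which encodes the Ki-67 protein that coats mitotic chromosomes, had 24 h levels of 54.2, 6.52 and 34.1 CPM with magnesium and 68.8, 11.1 and 14.3 CPM without in untransfected cultures. Its 24 h values in GFP cultures ran from 4.85 to 22.3 CPM (median 13.6 CPM), and in rMBD3 cultures from 1.21 to 19.9 CPM (median 2.7 CPM). The 3 ranges overlapped, and the highest rMBD3 library was again of replicate 1. Aurkb, the Aurora kinase of the chromosomal passenger complex, had a mean of 3.78 ± 2.98 CPM (SD, n = 6) in untransfected cultures at 24 h, 1.13 ± 1.12 CPM in GFP cultures and 0.331 ± 0.235 CPM in rMBD3 cultures. Ccnb1, cyclin B1, the partner of Cdk1 in mitosis, varied less: 5.75 ± 1.98, 3.48 ± 0.874 and 2.64 ± 0.618 CPM in the same 3 sets of 6 libraries.

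For 5 of the 9 genes (Top2a, Cdk1, Ccnb1, Ccna2 and Aurkb) the 6 rMBD3 libraries at 24 h lay entirely below the 6 untransfected ones, a pattern that 0.565% of the 17172 genes showed. For 2 of the 9 (Top2a and Ccna2) the GFP libraries did so, against 0.151% of all genes. No member separated rMBD3 from GFP libraries at 24 h, where 0.786% of all genes did in either direction.

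Differences were tested with edgeR's quasi-likelihood test, with p-values adjusted over all 17172 genes by the Benjamini-Hochberg method and a threshold of 0.05. Log2 fold changes are given ± standard error. The 3 construct comparisons share libraries, so their counts are not independent of one another. Averaged over media and times, 7 of the 9 genes were lower in rMBD3 than in untransfected cultures, a direction called for 4.38% of all genes (4.27% were higher, 8.65% passed in either direction). The median log2 fold change of the 9 was -1.64, against -0.04 over all genes tested.

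Top2a fell most in that comparison, with a log2 fold change of -2.86 ± 0.46 (edgeR adjusted p = 3.25e-05). Set side by side with the untransfected library of the same medium, time and replicate number, the rMBD3 library was lower in 16 of 18 pairs. Ccna2 fell by 2.02 ± 0.45 (adjusted p = 0.00256), Aurkb by 1.98 ± 0.59 (adjusted p = 0.0272) and Cdk1 by 1.76 ± 0.39 (adjusted p = 0.00252). Mki67 fell by 1.64 ± 0.32 (adjusted p = 0.000598). The mitotic cyclin Ccnb1 fell by 0.89 ± 0.14 and was lower in 18 of 18 pairs (adjusted p = 1.58e-05). Plk1, the polo-like kinase of mitotic entry and spindle formation, fell by 0.44 ± 0.13 (adjusted p = 0.0223; 13 of 18 pairs lower). Pcna had a log2 fold change of 0.00 ± 0.07 (95% interval -0.15 to 0.15) and Ccnd1 of -0.29 ± 0.22 (95% interval -0.73 to 0.15), and neither passed.

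Without the 6 untransfected libraries of replicate 1, 4 of the 7 calls remained: Top2a (-1.63, adjusted p = 0.00662), Mki67 (-1.05, adjusted p = 0.025), Ccnb1 (-0.71, adjusted p = 0.00102) and Plk1 (-0.44, adjusted p = 0.0339). Cdk1 (-0.91, adjusted p = 0.132), Ccna2 (-1.10, adjusted p = 0.125) and Aurkb (-1.37, adjusted p = 0.18) no longer passed edgeR's test. The difference also had the same sign inside each replicate number for these 7 genes: for Top2a it was -3.23 in replicate 1, -1.74 in replicate 2 and -1.58 in replicate 3, as means of log2 CPM differences. Leaving out replicate 3 in all groups left 3 of the 7 calls, those of Top2a, Mki67 and Ccnb1.

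GFP virus alone gave differences in the same direction but with fewer calls. Averaged over media and times, 1 of the 9 genes, Top2a, was lower in GFP than in untransfected cultures, a direction called for 0.21% of all genes (0.0874% were higher, 0.297% passed in either direction). Its log2 fold change was -2.49 ± 0.46 (edgeR adjusted p = 0.00392), with 15 of 18 pairs lower. All 9 fitted values were below 0, and 6 had an unadjusted p under 0.05, as did 10.1% of all genes. DESeq2 called 5 of the 9, adding Mki67, Cdk1, Ccnb1 and Ccna2, and 1.66% of all genes. Ccna2 had a log2 fold change of -1.51 ± 0.44 (adjusted p = 0.121), Cdk1 of -1.48 ± 0.39 (adjusted p = 0.078), Aurkb of -1.34 ± 0.58 (adjusted p = 0.401) and Mki67 of -1.21 ± 0.32 (adjusted p = 0.0791). Ccnb1 had -0.49 ± 0.14 (adjusted p = 0.0952), Ccnd1 -0.28 ± 0.22, Pcna -0.15 ± 0.07 (unadjusted p = 0.0501 by edgeR) and Plk1 -0.08 ± 0.13.

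The Top2a call for GFP against untransfected cultures depends on the libraries in the fit. Without the 6 untransfected libraries of replicate 1 its log2 fold change was -1.26 (edgeR adjusted p = 0.276), and none of the 9 genes passed. The call was also lost when replicate 1 (-1.45, adjusted p = 0.299) or replicate 3 (-2.74, adjusted p = 0.371) was left out of all groups. Within replicate numbers the Top2a difference was -2.92, -1.09 and -1.45 in replicates 1, 2 and 3.

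**Figure D2:**
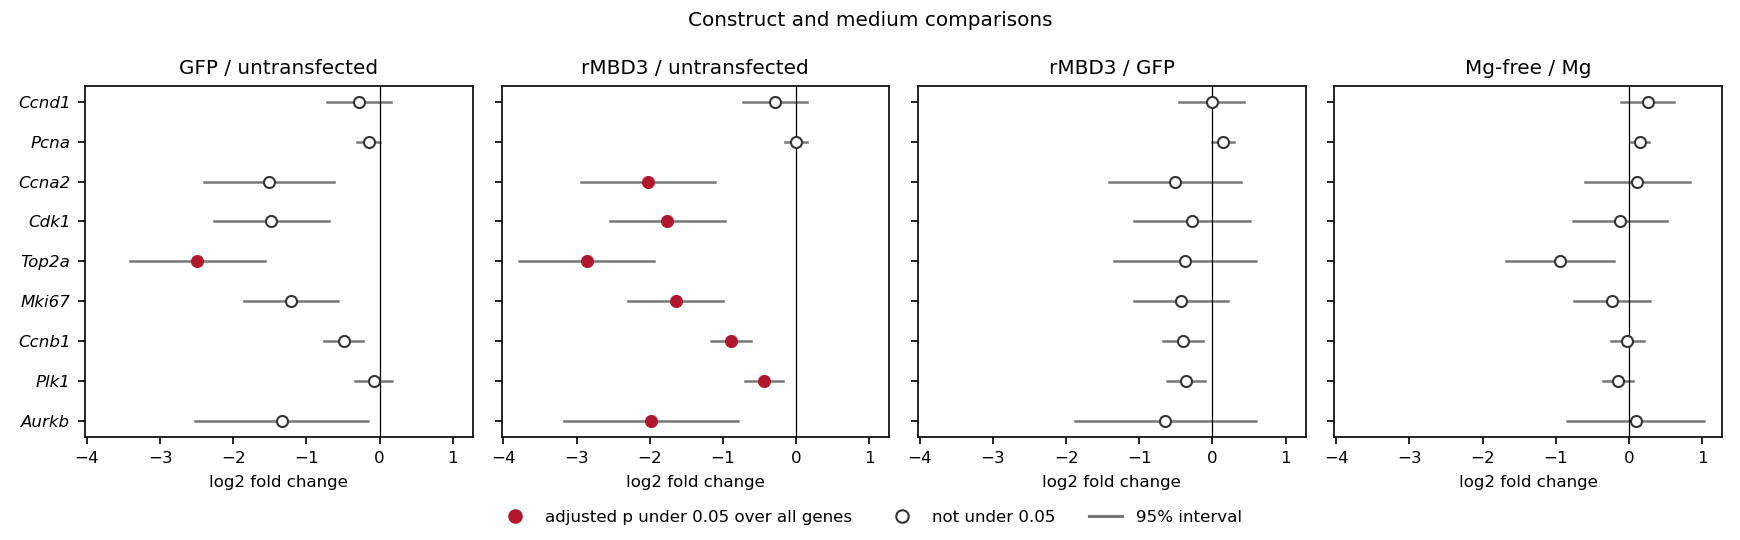
Log2 fold change (x axis) of the 9 genes with 95% intervals in 4 comparisons averaged over the other conditions; filled red points passed an edgeR adjusted p of 0.05 over all genes, open points did not. 7 genes lie left of 0 and are filled for rMBD3 against untransfected cultures, 1 for GFP against untransfected cultures, and none for rMBD3 against GFP or for magnesium-free against magnesium medium.

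Compared with the GFP virus, rMBD3 cultures had no member past the threshold (0 of 9), although 11% of all genes passed (6.41% higher and 4.58% lower) and 3 members had an unadjusted p under 0.05, as did 25.8% of all genes. Ccnb1 (-0.40 ± 0.14, 95% interval -0.67 to -0.12, edgeR adjusted p = 0.0513) and Plk1 (-0.36 ± 0.13, 95% interval -0.62 to -0.10, adjusted p = 0.0591) came nearest, and both were lower in 15 of 18 pairs. Both passed by DESeq2 (Ccnb1 adjusted p = 0.0349, Plk1 adjusted p = 0.0291), which called 14.3% of all genes. Of the 10 alternatives described below, Ccnb1 passed in 5, Plk1 in 4 and Mki67 in 1. Fits with replicate blocks were among those with calls. Averaged over 18 libraries each, Ccnb1 was at 2.64 ± 0.477 CPM (SD) in rMBD3 and 3.50 ± 0.926 CPM in GFP cultures, and Plk1 at 4.89 ± 2.18 and 5.96 ± 1.74 CPM. Pcna leaned the other way, with a log2 fold change of 0.15 ± 0.07 (adjusted p = 0.193) and 13 of 18 pairs higher. For the rarer genes the intervals were wide: Top2a -1.34 to 0.59, Mki67 -1.08 to 0.22, Cdk1 -1.07 to 0.52, Ccna2 -1.41 to 0.39 and Aurkb -1.88 to 0.59. That of Ccnd1 was -0.45 to 0.43.

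Time point by time point, the construct differences were tested over the 6 libraries of each construct. No member passed for rMBD3 against GFP at 2 h, 6 h or 24 h (0.874%, 0.221% and 0.949% of all genes did, of which 0.105%, 0.0408% and 0.553% were lower), and at an unadjusted p under 0.05 the counts were 0, 1 and 2 of 9, against 11.6%, 9.5% and 17.4% of all genes. DESeq2 called 0, 0 and 1, against 2.91%, 1.31% and 3.33% of all genes. At 24 h Plk1 had a log2 fold change of -0.67 ± 0.22 (edgeR adjusted p = 0.106) and Mki67 of -1.39 ± 0.55 (adjusted p = 0.167). Each passed in 3 of the 10 alternatives described below, replicate blocks among them. Against untransfected cultures at 24 h, 7 of 9 members were lower in rMBD3 cultures, a direction called for 6.16% of all genes (8.52% in either direction). Top2a fell by 4.98 ± 0.83 (edgeR adjusted p = 0.000365) and Ccna2 fell by 4.02 ± 0.84 (adjusted p = 0.00301). Plk1 fell by 1.04 ± 0.22 (adjusted p = 0.0037), from a mean of 5.37 ± 1.62 CPM (SD, n = 6) in untransfected to 2.58 ± 0.609 CPM in rMBD3 cultures.

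The 24 h calls of rMBD3 against untransfected cultures depend on the libraries in the fit. Without the 6 untransfected libraries of replicate 1, 2 of the 7 remained (Top2a and Plk1), and none remained when replicate 3 was left out of all groups or when only the 12 libraries compared were fitted, where the fold changes were similar (Top2a -5.02, edgeR adjusted p = 0.137). GFP against untransfected cultures at 24 h gave 0 of 9 calls, against 0.0233% of all genes, with 5 members at an unadjusted p under 0.05 (8% of all genes) and 3 called by DESeq2 (0.469% of all genes). Top2a came nearest (-3.64 ± 0.77, edgeR adjusted p = 0.0622). At 2 h and 6 h no gene passed for GFP against untransfected cultures (0% of all genes). At an unadjusted p under 0.05 the counts of members were 3 and 1, against 2.67% and 4.44% of all genes by edgeR, and DESeq2 called none, against 0.0837% and 0.00932% of all genes.

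A change of the construct difference between 2 h and 24 h was tested for rMBD3 against GFP and for GFP against untransfected cultures, and a change with medium for rMBD3 against GFP; for rMBD3 against untransfected cultures neither was tested. The rMBD3 difference from GFP at 24 h minus that at 2 h passed for 0 of 9 members (0.0175% of all genes, 0.00582% upward and 0.0116% downward). Mki67 had the smallest p, with a difference of -1.53 ± 0.79 (edgeR adjusted p = 0.615), and the 95% interval was wide, -3.14 to 0.08. The GFP difference from untransfected cultures at 24 h minus that at 2 h passed for 0 of 9 (0% of all genes), with Ccna2 at -2.38 ± 1.08 (unadjusted p = 0.0325, edgeR adjusted p = 1). The rMBD3 difference in magnesium-free minus that in magnesium medium also passed for 0 of 9 (0% of all genes), and no member had an unadjusted p under 0.05, where 2.75% of all genes did.

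Most of the 9 mRNAs were higher at 24 h than at 2 h. Averaged over constructs and media, 6 of the 9 rose and 1 fell, on a background where 34.2% of all genes rose and 35.3% fell (69.5% in all). With so many genes moving, these counts alone do not set the members apart. The median log2 fold change of the 9 was 1.59, against 0.015 over all genes tested.

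Ccnd1, the G1 cyclin, rose most evenly. It was at 84.3 ± 41.2 CPM (SD, n = 18) at 2 h, 120.8 ± 39.9 CPM at 6 h and 560.3 ± 216 CPM at 24 h, a log2 fold change of 2.74 ± 0.23 from 2 h to 24 h (edgeR adjusted p = 1.75e-13). All 18 libraries at 24 h (lowest 185.9 CPM) lay above all 18 at 2 h (highest 179.2 CPM), which 3.27% of all genes did. Ccnd1 rose in each of the 3 constructs, by 2.60 ± 0.40 in untransfected, 2.71 ± 0.40 in GFP and 2.91 ± 0.40 in rMBD3 cultures. The rMBD3 interaction with time had a 95% interval of -0.87 to 1.28 and the GFP interaction one of -0.97 to 1.18.

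Mki67 rose by 2.89 ± 0.34 (edgeR adjusted p = 7.79e-10) from 2 h to 24 h, from 2.05 ± 1.86 to 16.8 ± 18.6 CPM (SD, n = 18), and 17 of 18 pairs were higher. Top2a rose by 2.66 ± 0.47 (adjusted p = 4.05e-06), Aurkb by 2.41 ± 0.61 (adjusted p = 0.000572) and Cdk1 by 1.59 ± 0.39 (adjusted p = 0.000454). Without replicate 2 the rise of Aurkb was 1.33 and did not pass. In that fit the GFP libraries with magnesium at 24 h held no Aurkb count. Whether this was the cause of the lost call was not tested. With replicate 2 that group had a median of 0 and a highest value of 2.54 CPM. Within replicate numbers Aurkb rose by 1.236, 2.058 and 1.575 in replicates 1, 2 and 3, as means of log2 CPM differences, and 15 of 18 pairs were higher. Pcna rose by 0.30 ± 0.08 (adjusted p = 0.00055), from 50.3 ± 7.38 to 61.6 ± 11 CPM, with 16 of 18 pairs higher. Ccna2 (0.59 ± 0.45, adjusted p = 0.24) and Ccnb1 (0.19 ± 0.14, adjusted p = 0.202) did not pass.

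Plk1 moved against the others. Its level was 6.91 ± 1.25 CPM (SD, n = 18) at 2 h, 6.11 ± 1.40 CPM at 6 h and 4.01 ± 1.65 CPM at 24 h. It fell by 0.86 ± 0.13 on the log2 scale from 2 h to 24 h (edgeR adjusted p = 1.7e-07), and 17 of 18 pairs were lower. Most of the drop came after 6 h (-0.66 ± 0.13 from 6 h to 24 h, against -0.19 ± 0.13 from 2 h to 6 h, which did not pass). Plk1 fell by 1.42 ± 0.23 in rMBD3 cultures (all 6 pairs lower) and by 0.86 ± 0.22 in GFP cultures (all 6 pairs lower). In untransfected cultures it had a log2 fold change of -0.30 ± 0.22 (edgeR adjusted p = 0.277), which did not pass. The falls were not shown to differ in the 2 tests made: rMBD3 against GFP cultures gave -0.56 ± 0.31 (edgeR adjusted p = 0.624) and GFP against untransfected cultures -0.56 ± 0.31 (adjusted p = 1). Whether the fall differed between rMBD3 and untransfected cultures, which lay furthest apart, was not tested.

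**Figure D3:**
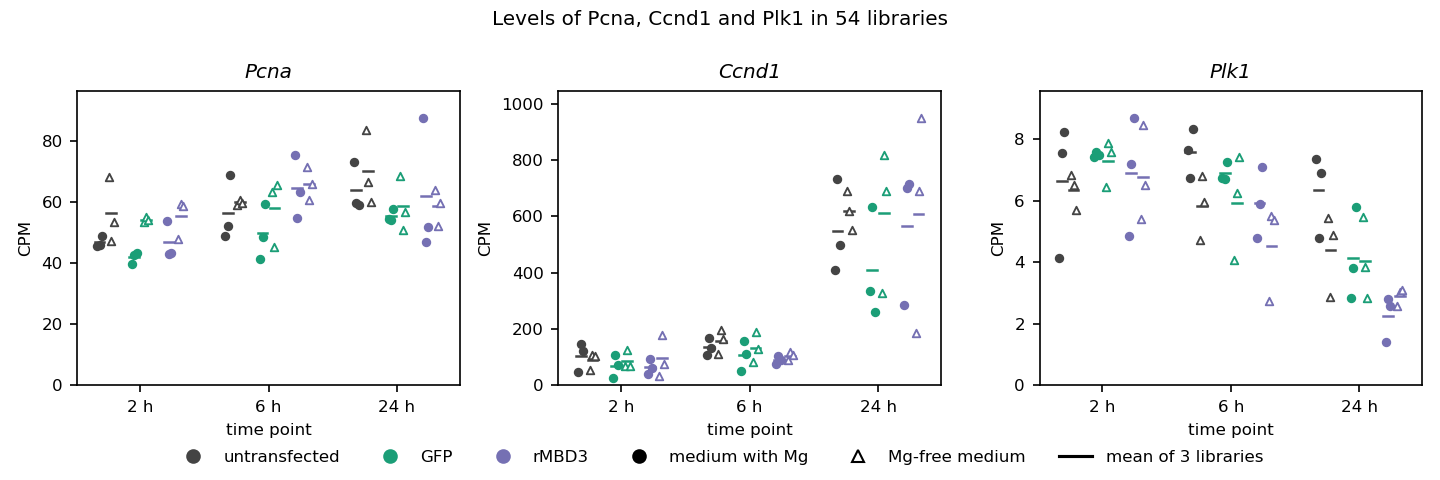
CPM (linear axis from 0) of Pcna, Ccnd1 and Plk1 in 54 libraries by time point and construct, with the symbols of the plot of 6 S-to-M phase genes. Ccnd1 reaches at most 196.1 CPM at 2 h and 6 h and lies between 185.9 and 951 CPM at 24 h, while Plk1 has its lowest mean, 2.58 CPM, in the 6 rMBD3 libraries at 24 h, which lie between 1.42 and 3.09 CPM and overlap those of other groups.

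The early and late steps differed by gene. From 2 h to 6 h, 4 of the 9 rose (22.2% of all genes rose; 49.1% passed in either direction): Mki67 by 1.52 ± 0.33 (edgeR adjusted p = 0.000161, all 18 pairs higher), Top2a by 1.32 ± 0.46 (adjusted p = 0.0169), Ccnd1 by 0.51 ± 0.22 (adjusted p = 0.0479) and Pcna by 0.24 ± 0.08 (adjusted p = 0.00732). Of these calls, only that of Mki67 remained without replicate 3. From 6 h to 24 h, 3 rose and 1 fell (24.3% and 26.3% of all genes; 50.6% in either direction): Ccnd1 rose by 2.23 ± 0.23, Mki67 by 1.37 ± 0.32 and Top2a by 1.34 ± 0.43, and Plk1 fell. Cdk1 (0.89 ± 0.38, adjusted p = 0.0501) and Aurkb (1.32 ± 0.57, adjusted p = 0.0509) lay just outside the threshold. Pcna had 0.06 ± 0.07 over this step.

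**Figure D4:**
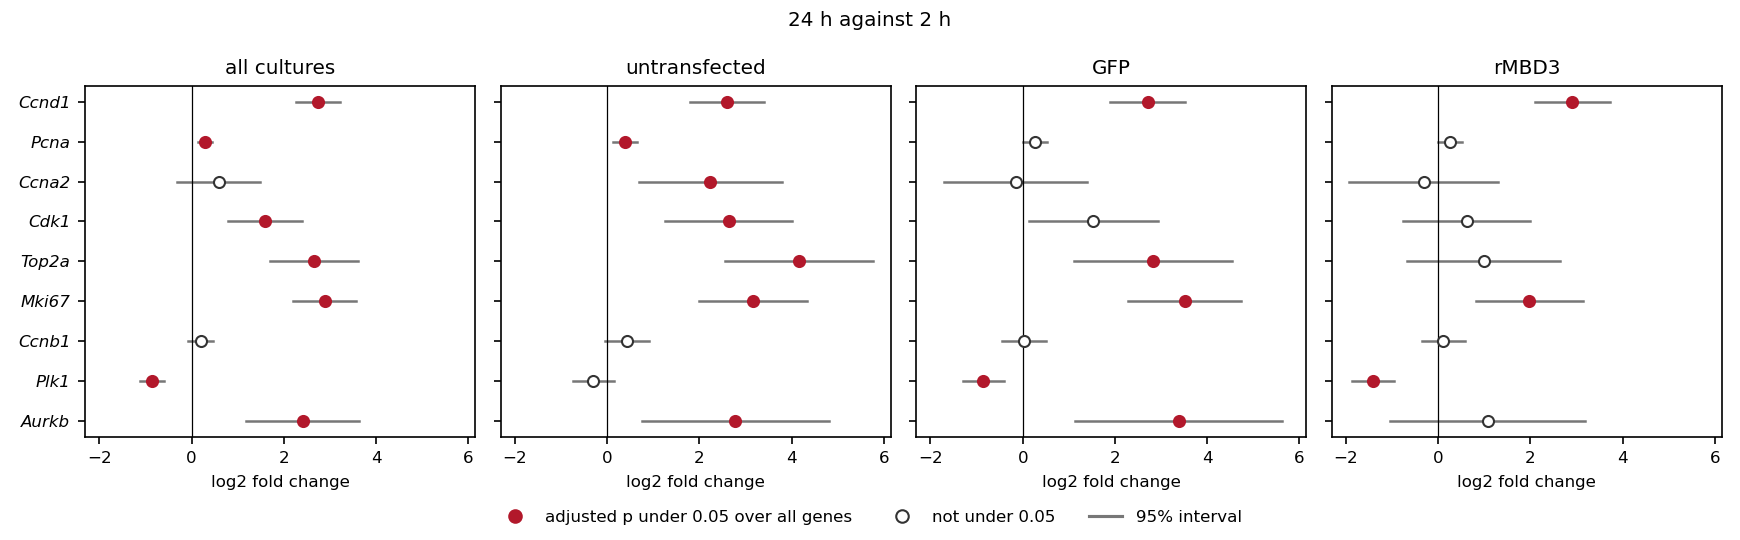
Log2 fold change from 2 h to 24 h with 95% intervals for the 9 genes over all cultures and within each construct; filled red points passed an edgeR adjusted p of 0.05. In untransfected cultures 7 genes rose, in GFP cultures 4 rose and Plk1 fell, and in rMBD3 cultures Mki67 and Ccnd1 rose and Plk1 fell.

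Within constructs, 7 of 9 rose from 2 h to 24 h in untransfected cultures (21.1% of all genes rose; 45.1% in either direction). Top2a rose by 4.16 ± 0.80 (edgeR adjusted p = 4.4e-05), Mki67 by 3.17 ± 0.58, Aurkb by 2.78 ± 1.00, Cdk1 by 2.64 ± 0.68 and Ccna2 by 2.24 ± 0.77, and all 6 pairs were higher for each. Without the libraries of replicate 1 in these cultures, 4 of the 7 remained (Top2a, Mki67, Cdk1 and Ccnd1), and without replicate 3 in all groups 3 remained (Top2a, Mki67 and Ccnd1). In GFP cultures 4 of 9 rose and 1 fell (24.6% and 28.1% of all genes; 52.8% in either direction): Mki67 by 3.51 ± 0.60, Aurkb by 3.38 ± 1.11, Top2a by 2.82 ± 0.85 and Ccnd1. Without replicate 2 the Aurkb value in GFP cultures turned to -0.13, and 2 calls remained (Mki67 and Ccnd1). In that fit the GFP libraries with magnesium at 24 h held no Aurkb count, and whether this was the cause was not tested. In rMBD3 cultures 2 of 9 rose and 1 fell (25.9% and 27.6%; 53.5% in either direction), with Mki67 up by 1.98 ± 0.57 (adjusted p = 0.00357). Mki67 did not pass there without replicate 1 (0.87, adjusted p = 0.0985). Top2a (0.98 ± 0.82), Cdk1 (0.61 ± 0.68) and Aurkb (1.07 ± 1.05) had intervals that include 0 in rMBD3 cultures.

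Magnesium-free medium gave no call for any of the 9 genes, averaged over constructs and times or at any time point, and no gene of the whole table passed by edgeR (0%). Unadjusted, 2 of the 9 had a p under 0.05 in the averaged comparison, as did 1565 of all 17172 genes (9.11%). Top2a had a log2 fold change of -0.94 ± 0.37 (edgeR adjusted p = 0.531, 15 of 27 pairs lower) and Pcna of 0.15 ± 0.06 (adjusted p = 0.531, 20 of 27 pairs higher). Means over 27 libraries were 2.27 ± 4.61 CPM of Top2a with and 2.10 ± 7.53 CPM without magnesium, and 54.3 ± 11.6 and 59.8 ± 8.33 CPM of Pcna. The widest interval belonged to Aurkb (-0.84 to 1.03) and the narrowest to Pcna (0.03 to 0.27). DESeq2 called 0 of the 9 as well in the averaged comparison, and 0.0466% of all genes. At 2 h, 2 of the 9 had an unadjusted p under 0.05 by edgeR, as did 132 of all 17172 genes. These were Pcna (0.294 ± 0.105, 8 of 9 pairs higher) and Top2a (-1.755 ± 0.698, 6 of 9 pairs lower). At 6 h and 24 h, 0 of the 9 did, against 355 and 1988 genes. The magnesium-free difference at 24 h minus that at 2 h passed for 0 of 9 (0% of all genes).

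Across the 54 libraries the levels of Top2a, Mki67, Cdk1, Ccna2, Aurkb and Ccnb1 went together. Pearson's r of their log2 CPM ran from 0.477 (Ccnb1 with Aurkb) to 0.825 (Top2a with Mki67), as a description over libraries that share the group differences above. After each group's mean was subtracted, r stayed above 0 for each pair of the 6, from 0.27 (Top2a with Ccnb1) to 0.678 (Top2a with Mki67), with 0.273 for Cdk1 with Ccnb1, 0.275 for Mki67 with Cdk1 and 0.604 for Top2a with Ccna2. Pcna followed Mki67 (r = 0.581, and 0.513 within groups), while its r with Cdk1 was 0.158, and -0.281 within groups. Ccnd1 had r from 0.009 to 0.521 with the 6 genes over all libraries and from -0.446 (with Ccna2) to -0.111 (with Aurkb) within groups. Plk1 stood apart from the 6, with r between -0.285 and 0.194, and had r = -0.50 with Ccnd1 over all libraries and 0.326 within groups.

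**Figure D5:**
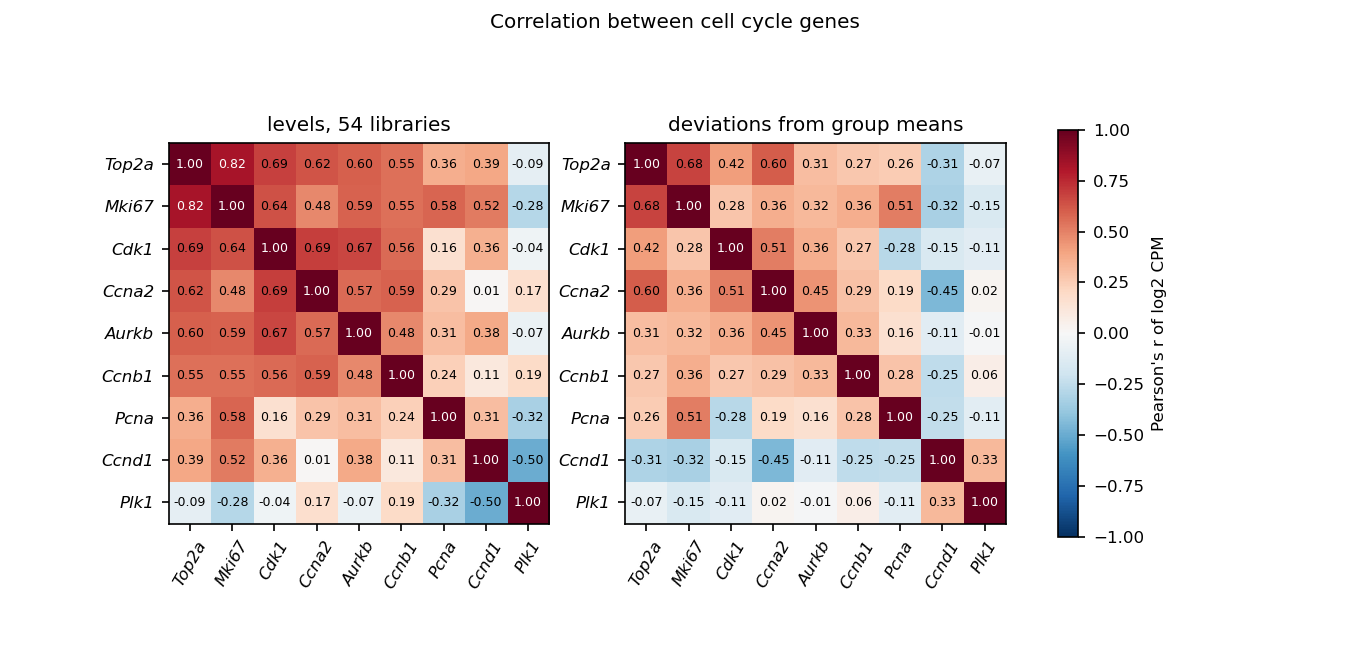
Pearson's r of log2 CPM between the 9 genes over 54 libraries (left) and after subtracting group means (right); red is positive and blue negative. The 6 genes in the upper left block are positive with each other in both panels, Ccnd1 turns negative with them within groups, and Plk1 is near 0 with them in the right panel.

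Among 12200 other genes with a mean log2 CPM of at least 1, 2 followed the mean standardised level of the 9 most closely over the 54 libraries: ENSRNOG00000014336 (chromosome 19, 13483066 to 13504389, r = 0.815) and ENSRNOG00000017981 (chromosome 17, 73266095 to 73287364, r = 0.807), in mRatBN7.2 coordinates. The first had means of 24.8 CPM in untransfected, 6.99 CPM in GFP and 4.67 CPM in rMBD3 cultures at 24 h, and the second 8.87, 3.65 and 2.45 CPM. The most opposed were ENSRNOG00000006670 (chromosome X, 32948656 to 33011264, r = -0.722) and ENSRNOG00000030264 (chromosome 7, 107716431 to 107728672, r = -0.716). Their 24 h means were 4.29, 5.98 and 8.72 CPM and 8.56, 13.3 and 16.7 CPM in the same order of constructs. These 4 genes are named by a fixed rank rule, with no test. With RLE in place of TMM scaling, ENSRNOG00000012786 (chromosome X, 115832884 to 115888682, r = -0.74) took the place of ENSRNOG00000006670, and the other 3 were the same.

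In the annotation of the count table (mRatBN7.2, Ensembl) Top2a (ENSRNOG00000053047) lies on chromosome 10 from 83945735 to 83976874 and Aurkb (ENSRNOG00000005659) on chromosome 10 from 53745142 to 53750837. Mki67 (ENSRNOG00000028137, 190496319 to 190522762), Plk1 (ENSRNOG00000018815, 176716420 to 176726400) and Ccnd1 (ENSRNOG00000020918, 200089002 to 200098602) are on chromosome 1. Ccnb1 (ENSRNOG00000058539, 31912193 to 31921172) and Ccna2 (ENSRNOG00000015423, 119426089 to 119433577) are on chromosome 2, Pcna (ENSRNOG00000021264) is on chromosome 3 (119498810 to 119502995) and Cdk1 (ENSRNOG00000000632) on chromosome 20 (19266248 to 19281408). All values above come from counts over the exons of these gene models.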

How the data were processed

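The authors deposited raw read counts per gene for 54 libraries, made with featureCounts 2.0.0 per the file header (stranded, setting 2, minimum mapping quality 3, primary alignments) against an Ensembl annotation of mRatBN7.2. Per the labels' protocols, libraries came from a KAPA stranded mRNA kit and reads were aligned with STAR, where the genome is given as rn6; the submitters' processing notes name mRatBN7.2. A second deposited table of log2 values was not used here. All 30560 rows carried a gene identifier.

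Members and lists were chosen with earlier results of these data known. edgeR 4.0.16 (R 4.3.3) was fitted to the counts with TMM scaling, a low-count filter (minimum count 10, minimum total 15), 1 coefficient for each of 18 groups, robust quasi-likelihood dispersions and Benjamini-Hochberg adjustment over 17172 genes at 0.05. Standard errors were computed as the absolute log2 fold change over the square root of F, and 95% intervals from the t distribution with edgeR's degrees of freedom. The script was tested on simulated data. Correlations used log2 CPM with a prior count of 2. The 10 alternatives included DESeq2 1.42.0, other scaling, no filter, replicate blocks and omitted libraries. The text names all 9 members and, beyond them, the 2 genes most like and the 2 most unlike their mean. Planned lists of 110 gene symbols (pathways and cell type markers) were not analysed here, since 0 identifiers of the count table could be paired with symbols. The names of the 9 members come from the rule, and their chromosomes matched those of RefSeq. Genomic spans were also compared, between 2 builds, and some differed. Ccna2 spanned 7489 bases in the count table and 6400 in RefSeq, and Aurkb 5696 and 6560. Libraries within groups differed beyond sampling noise in all 54 pairs, so each counted as 1 replicate.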

Additional observations from a re-analysis of the deposited data

How the results depend on the processing

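Counts of the 9 genes called were recomputed under 10 alternatives in 14 comparisons and under 9 in the other 10. Of these counts, 202 stayed within 1.5 times the main count and 28 did not. Main counts of 0 that stayed at 0 are among the 202, so this tally does not show that calls were stable. With 1 replicate number left out in turn, the counts ran from 0 to 1 for rMBD3 against GFP (main 0), 0 to 1 for GFP against untransfected (main 1), 3 to 6 for rMBD3 against untransfected (main 7), 1 to 5 for 6 h against 2 h (main 4), 0 to 1 for rMBD3 against GFP at 24 h (main 0), 0 to 7 for rMBD3 against untransfected at 24 h (main 7), 3 to 8 for 24 h against 2 h in untransfected cultures (main 7) and 2 to 7 in GFP cultures (main 5). DESeq2 called 2 for rMBD3 against GFP and 1 at 24 h, and 5 for GFP against untransfected and 3 at 24 h. With only the compared groups in the fit, rMBD3 against GFP had 1 call and rMBD3 against untransfected at 24 h had 0. Without the untransfected libraries of replicate 1 the counts were 2 for rMBD3 against GFP, 0 for GFP against untransfected, 4 for rMBD3 against untransfected, 2 for the latter at 24 h and 4 for 24 h against 2 h in untransfected cultures. No paired fit was used in the report, because the methods in the labels name no block. Same-numbered libraries did go together: 50 of 54 construct pairs had a correlation of deviations over 0.1 (mean 0.279, lowest -0.089). Of the 54 libraries, 48 lay closest to their own number. With a replicate block 2 members were called for rMBD3 against GFP, 4 for GFP against untransfected, 2 for rMBD3 against GFP at 24 h and 1 for GFP against untransfected at 24 h. With the replicate block per time point these counts were 2, 5, 2 and 2.

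Of 135 log2 fold changes of single members, 29 changed sign under 1 or more alternatives. Of these, only Aurkb from 2 h to 24 h in GFP cultures (leave-one-out -0.13 to 3.61) had passed the threshold. Its negative value came without replicate 2, where the GFP libraries with magnesium at 24 h held no Aurkb count. The cause of the change was not tested. With replicates left out in turn, the other ranges across 0 for rMBD3 against GFP were -0.13 to 0.10 (Ccnd1) and -1.33 to 0.18 (Aurkb), and at 24 h -0.083 to 0.15 (Pcna), -2.05 to 1.2 (Aurkb) and -0.20 to 0.45 (Ccnd1). For rMBD3 against untransfected they were -0.049 to 0.034 (Pcna, and 0.05 without the untransfected libraries of replicate 1) and, at 24 h, -0.42 to 0.32 (Ccnd1). For the media they were -0.23 to 0.17 (Cdk1), -0.09 to 0.053 (Ccnb1) -0.48 to 1.58 (Aurkb) and, with only the untransfected libraries of replicate 1 left out, -0.054 (Ccna2, whose highest value was 0.223). For 24 h against 6 h they were -0.12 to 0.20 (Ccnb1), -0.055 to 0.15 (Pcna), -0.27 to 0.65 (Ccna2) and -0.17 to 2.34 (Aurkb). For the rMBD3 interaction with time they were -0.76 to 0.94 (Ccna2), -0.25 to 0.23 (Ccnb1), -2.72 to 1.37 (Aurkb), -0.16 to 0.051 (Pcna) and -0.27 to 0.60 (Ccnd1), and for the GFP interaction -0.77 to 0.045 (Ccnb1), -3.02 to 0.93 (Aurkb) and -0.09 to 0.30 (Ccnd1, and 0.356 without the untransfected libraries of replicate 1). From 2 h to 24 h they were -0.26 to 0.34 (Ccnb1) and -0.59 to 0.21 (Ccna2) in GFP cultures and -0.87 to 0.80 (Ccna2), -0.093 to 1.46 (Cdk1) and -0.033 to 0.28 (Ccnb1) in rMBD3 cultures. Among the other alternatives, Pcna for rMBD3 against untransfected was -0.006 with RLE scaling and with DESeq2, -0.003 with the replicate block and -0.002 with the block per time point. Ccnd1 in that comparison at 24 h was -0.043 with RLE scaling and DESeq2, -0.139 with the replicate block, -0.136 with the block per time point, -0.032 without the untransfected libraries of replicate 1 and -0.009 with the compared groups only, where Ccnd1 for rMBD3 against GFP was 0.003. Without the untransfected libraries of replicate 1, Cdk1 (0.087) for the media and Ccnb1 (-0.047) and Pcna (-0.002) for 24 h against 6 h changed sign. With the replicate block Ccna2 was 0.12 for the rMBD3 interaction with time and 0.015 from 2 h to 24 h in rMBD3 cultures. Depth limits the rare genes: a library count of 3 or fewer occurred for Aurkb in 15 of the 54 libraries, Top2a in 8, Ccna2 in 4 and Cdk1 in 2. Single-member values for the media at each time, for rMBD3 against GFP and GFP against untransfected at 2 h and 6 h and for the medium interactions were recomputed only as counts of calls.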

Other observations

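The untransfected replicate 1 library with magnesium had the highest level of Top2a, Mki67 and Cdk1 among the 18 libraries of 2 h, at 4.34, 8.63 and 3.51 CPM, where the next highest library held 0.651, 3.41 and 1.02 CPM. It was also the highest for these 3 genes among the 18 libraries of 6 h, at 8.40, 17.7 and 5.17 CPM. The magnesium-free library of the same number held 0.491 CPM of Top2a at 2 h and 0.547 CPM at 6 h, but 39.6 CPM at 24 h.

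Over the 4 untransfected libraries of replicates 2 and 3 at each time, Top2a was at 0.376 ± 0.273 CPM (SD) at 2 h, 0.78 ± 0.334 CPM at 6 h and 5.04 ± 4.11 CPM at 24 h. Mki67 was at 2.62 ± 0.842, 5.68 ± 1.47 and 16.5 ± 12.2 CPM, and Cdk1 at 0.638 ± 0.305, 0.725 ± 0.38 and 3.74 ± 1.80 CPM. These values come without a test.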
